A study of Mus musculus with 165 samples.

Results

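The transcriptomes of PUER cells were compared between GCSF and IL3 at 4h of 4-hydroxy-tamoxifen (OHT). The members were the 6 libraries whose titles name these cytokines with OHT at 4h, 3 of GCSF-OHT and 3 of IL3-OHT cells, or 2 of the 56 groups of condition and time in the series. PUER cells are a single mouse hematopoietic progenitor line of genotype Spi1-/-, so all libraries lack the endogenous transcription factor PU.1 and carry in its place a fusion of PU.1 with the hormone-binding part of the estrogen receptor, which OHT activates. The labels give the cells as bone marrow-derived progenitors, while the study also describes a fetal liver origin. IL3-OHT cells stayed in IL3 at 5 ng/ml and received 200 nM OHT. GCSF-OHT cells were washed, held in GCSF at 10 ng/ml without IL3 for 48 h, and then received 100 nM OHT with GCSF still present. The groups therefore differed in cytokine, in the 48 h without IL3 and in the dose of OHT, and these cannot be told apart. Cells before OHT were used beside them: GCSF 0h (48 h of GCSF, 3 libraries) and IL3 0h (undifferentiated cells in IL3, 3 libraries). The titles of the GCSF 0h libraries name OHT, and those of IL3 0h name no OHT. The study places 0h just before OHT was added, so GCSF 0h is read here as without OHT. Every time point had a plate of its own, and the study gives the replicates as biological. All 6 came from 1 line, so p-values measure the spread between its cultures.

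IL3 and GCSF both keep myeloid progenitors alive and dividing, through receptors of the cytokine receptor family that activate JAK kinases, STAT factors and the RAS-ERK cascade. The IL3 receptor pairs a specific alpha chain with the common beta chain and signals mainly through STAT5, whereas the GCSF receptor is a homodimer that signals mainly through STAT3 and is the principal growth and maturation signal of neutrophils. Both pathways switch on their own inhibitors, among them the SOCS proteins. Signaling itself was not measured here. PU.1 drives genes of macrophages and of neutrophils alike.

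The 6 libraries held 18733936 to 23716407 reads on genes, and 3 reads, the smallest number read here as signal, corresponded to a normalized count of 2.73 to 3.48. Values are normalized counts, that is reads divided by the library's size factor, which are not divided by gene length and are compared between libraries within a gene. Their total was higher in IL3-OHT (21349012 to 21725587) than in GCSF-OHT (19676000 to 19806927), and 6.73% to 6.96% of reads fell on the 10 highest genes in IL3-OHT against 5.13% to 5.21% in GCSF-OHT. More genes had a read in IL3-OHT (16665 to 17043) than in GCSF-OHT (15851 to 16321). Other scalings and filters were tried as alternatives, and beyond these the part of such differences in the results was not tested. In these bulk samples, fewer cells of a type and less RNA per cell cannot be told apart.

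Spi1 stood at 11698, 11880.0 and 11012 normalized counts in GCSF-OHT and at 12000.5, 11867 and 11911 in IL3-OHT (chr2:91082390-91115756, GRCm38). The groups overlapped, and the difference was not called (log2 fold change -0.049, SE 0.048, limma adjusted p = 0.42). These reads include the fusion, as the endogenous gene is disrupted. Esr1, the estrogen receptor gene, chosen after its values were seen, had 4265, 4404 and 4336 in GCSF-OHT and 5393, 5563 and 5771 in IL3-OHT (log2 fold change -0.36, SE 0.057, limma adjusted p = 2.4e-08), which lies under the fold threshold of 0.58. Of the 10 myeloid progenitor markers, 2 (Myb and Mpo) were higher and 3 (Kit, Sox4 and Cd33) lower in GCSF-OHT. Kit had means of 3505 and 5747 in GCSF-OHT and IL3-OHT, whereas Ptprc (CD45) had means of 2.24 and 1.71 and Cd34 of 1.01 and 1.83, both at or under the value of 3 reads.

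Differentially expressed genes (DEGs) passed 2 thresholds, a limma adjusted p under 0.05 and a log2 fold change of more than 0.58 in either direction, always as GCSF minus IL3 on the log2(normalized count + 1) scale. At 4h, 4660 of 17414 genes tested (26.8%) were DEGs, 2020 higher (11.6%) and 2640 lower (15.2%) in GCSF-OHT, with a median of -0.069 over all genes. The split was nearer to even with TMM scaling in edgeR's quasi-likelihood test (2207 and 2251) and among genes whose mean normalized count reached 10 (1886 and 1940). Egr1 and Socs1 were among the genes lowest in GCSF-OHT, and Ncf4 and Csf3r, the receptor of GCSF, among those highest there. The 12 lowest and the 12 highest named DEGs are given first. They were chosen among DEGs with a mean of at least 100 in the higher group and groups that did not overlap.

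Egr1, an immediate-early zinc finger factor, had the lowest fold change of these: 2576, 2703 and 2818 normalized counts in IL3-OHT against 72.9, 89.5 and 70.2 in GCSF-OHT (log2 fold change -5.11, SE 0.18, limma adjusted p = 1.7e-51). Socs1, an inhibitor of JAK kinases, followed at 709.7, 649.9 and 738 against 20.6, 21.2 and 18.8 (log2 fold change -5.04, SE 0.18, chr16:10782240-10785536). In each of these genes the lowest IL3-OHT library exceeded the highest GCSF-OHT library many times over. The chemokines Cxcl3 (IL3-OHT mean 486, GCSF-OHT mean 20.1) and Cxcl2 (426 and 31.7), which attract neutrophils, had log2 fold changes of -4.53 and -3.72. Hmox1, the enzyme that degrades heme, had 18951, 17024 and 17822 in IL3-OHT and 1122, 1069.8 and 998 in GCSF-OHT (log2 fold change -4.08, SE 0.10). Tnfrsf9 (CD137), a costimulatory receptor, had 9504, 8745 and 8871 in IL3-OHT and 519, 510.0 and 565 in GCSF-OHT. The remaining genes of this end were the protease inhibitors Serpinb9f (-4.42) and Serpinb9g (-4.16), the ubiquitin ligase Rnf183 (-4.33), the myosin Myo15 (-4.27), the Cdc42 effector Cdc42ep2 (-3.86) and the chromatin remodeler Chd5 (-3.70). The Serpinb9 genes form a family of near-identical copies, so reads may have been split between them.

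At the other end, Csf3r, the GCSF receptor, had 3623, 3783 and 3278 in GCSF-OHT against 302, 333 and 293 in IL3-OHT, an 11.5-fold ratio of means (log2 fold change 3.52, SE 0.064, limma adjusted p = 4.4e-80, chr4:126024550-126044440). Ncf4, a cytosolic subunit of the NADPH oxidase, had 186.9, 178.9 and 169.6 against 9.28, 11.9 and 7.27 (log2 fold change 4.12, SE 0.19, chr15:78244801-78262580). Ltb4r1, the high-affinity receptor of leukotriene B4, had 111.2, 117.1 and 101.6 against 13.9, 16.2 and 8.18 (log2 fold change 3.06, SE 0.16). Both act in neutrophils. Hdc, which makes histamine, was higher by 3.45 on the log2 scale, and Cftr, a chloride channel, by 3.44. The sodium channel subunit Scnn1a, the receptor adaptor Grb14 and the TNF receptor family member Tnfrsf14 were higher by 3.21, 3.30 and 3.15. Grb14 had 798, 786 and 779 against 69.6, 85.6 and 82.7. Mrgpra2a, a Mas-related G protein-coupled receptor, had the highest log2 fold change of the 24 (4.16, SE 0.23), and the neighbouring apolipoprotein genes Apoc4 and Apoc2 were higher by 3.40 and 3.26. Mrgpra2a has a near-identical paralog and Apoc4 and Apoc2 lie side by side, so their reads are uncertain. Pagr1a was the least certain, with 59.8, 204.7 and 205.2 in GCSF-OHT and 53.3, 1.08 and 7.27 in IL3-OHT. Its groups were separated by only a few counts, and its log2 fold change of 3.81 had an SE of 1.59 (limma adjusted p = 0.037). The call was lost under 7 of 15 alternatives, among them the omission of replicate 2 or 3 of either group (log2 fold change 2.69 to 3.69).

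**Figure D1:**
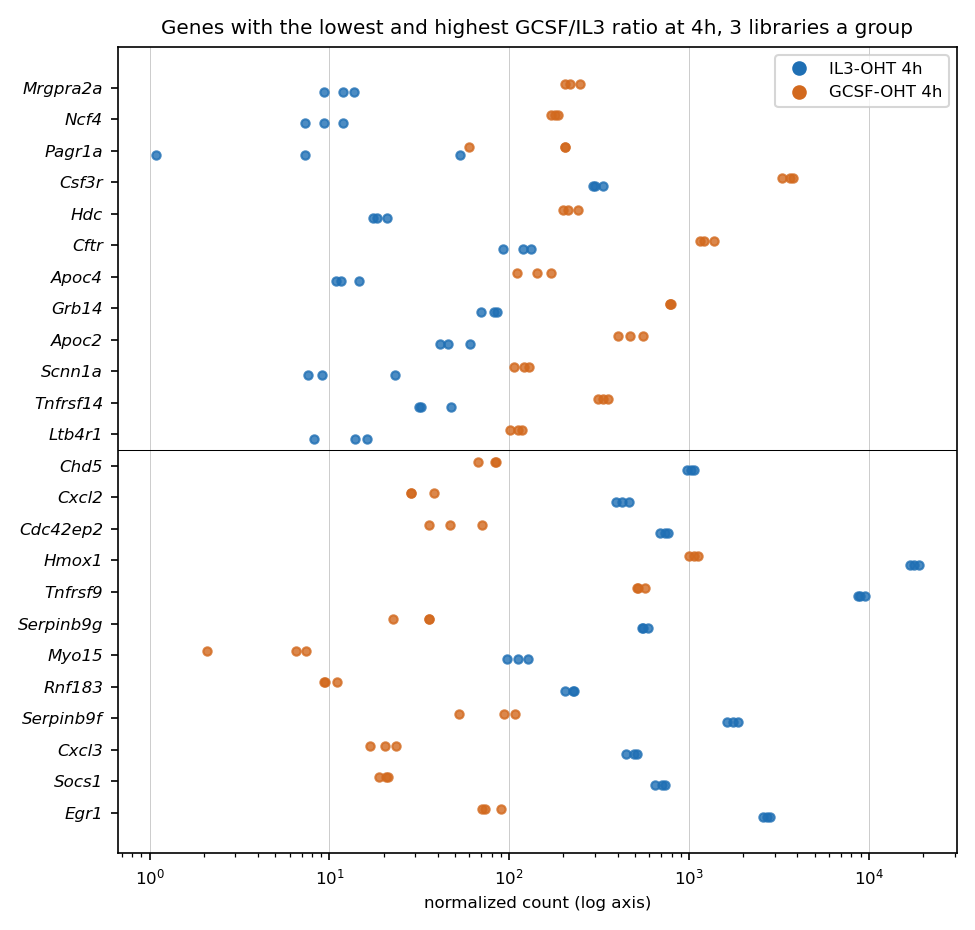
Normalized counts (log axis) of the 24 genes with the lowest (lower block) and highest (upper block) log2 fold changes at 4h, 1 point per library, blue for IL3-OHT and orange for GCSF-OHT. The genes were chosen among those whose groups of 3 do not overlap, and the narrowest gap is in Pagr1a.

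The first question was how known STAT targets and feedback genes of the cytokine receptors differed. Of the 18 STAT targets and feedback genes, all tested, 9 were lower and 6 higher in GCSF-OHT, with a median of -0.55. The lower members included 4 SH2-containing suppressors and 2 Pim kinases, which STAT factors induce, and the higher members included the genes of 3 STAT factors. Cish, a STAT5 target that inhibits the receptor, had 8581, 8135 and 8659 normalized counts in IL3-OHT and 1180.4, 1121 and 948 in GCSF-OHT (log2 fold change -2.97, SE 0.080, limma adjusted p = 1.8e-62). Socs2 had 1748, 1759 and 1818 against 495, 486 and 467 (log2 fold change -1.88, SE 0.080). Socs3, the main inhibitor of the GCSF receptor, was also lower in GCSF-OHT, at 5643, 5505 and 4990.2 against 17278, 17054 and 18394 (log2 fold change -1.71, SE 0.079). With Socs1, given above, all 4 suppressors were DEGs lower in GCSF-OHT, as were 15.2% of all genes tested. Id1, an inhibitor of basic helix-loop-helix factors, was lower (log2 fold change -1.73), as were the cytokine Osm (-0.92), the adaptor Sh2b3 (-0.81) and the kinases Pim1 (-0.75) and Pim3 (-0.73). Higher members were Bcl3 (1.79), Stat3 (1.02), Stat5b (0.95), the phosphatase Ptpn6 (0.95), the repressor Bcl6 (0.88) and Stat5a (0.81). Stat3 had 3041, 3187 and 2851 in GCSF-OHT and 1527, 1473 and 1461 in IL3-OHT.

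The promoters of members of this list that hold the STAT motif TTCNNNGAA, which is its own reverse complement, are shown because STAT factors bind this sequence. RefSeq (GRCm38.p6) gave promoters, 250 bases before to 50 bases after a gene start, for 14 of the 18 genes, 18 promoters in all. The motif was in 4 of these promoters (22.2%), those of Cish, Socs3 and Bcl6, and in 8.3% of all 32851 promoters. Matches are in capitals. Cish holds 2 matches, starting 0 and 11 bases from the gene start (chr9:107296409-107296708, plus strand). Socs3 holds 1 (chr11:117969317-117969616, minus strand), and the Bcl6 promoter shown holds 3 (chr16:23981234-23981533, minus strand).
Cish: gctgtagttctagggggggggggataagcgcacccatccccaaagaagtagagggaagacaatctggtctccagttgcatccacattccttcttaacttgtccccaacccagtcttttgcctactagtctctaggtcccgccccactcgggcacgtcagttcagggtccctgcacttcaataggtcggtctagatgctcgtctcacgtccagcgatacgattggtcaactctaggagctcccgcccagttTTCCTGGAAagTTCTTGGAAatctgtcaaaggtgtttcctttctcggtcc
Socs3: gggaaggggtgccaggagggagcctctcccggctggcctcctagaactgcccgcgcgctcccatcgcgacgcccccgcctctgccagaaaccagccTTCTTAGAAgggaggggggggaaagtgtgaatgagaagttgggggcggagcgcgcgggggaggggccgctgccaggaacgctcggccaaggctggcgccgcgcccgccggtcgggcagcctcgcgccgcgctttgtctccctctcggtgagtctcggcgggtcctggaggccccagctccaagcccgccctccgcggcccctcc
Bcl6: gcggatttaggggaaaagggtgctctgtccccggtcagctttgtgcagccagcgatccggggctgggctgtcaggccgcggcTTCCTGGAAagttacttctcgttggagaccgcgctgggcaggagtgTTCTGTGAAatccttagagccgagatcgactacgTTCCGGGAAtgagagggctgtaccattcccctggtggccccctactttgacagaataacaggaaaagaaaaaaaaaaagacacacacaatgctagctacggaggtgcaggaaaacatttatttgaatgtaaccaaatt
Cish and Socs3 were lower and Bcl6 higher in GCSF-OHT, so genes with the motif in this window were found on both sides. The PU.1 motif GAGGAAGT, searched on both strands, was in 0 of these 18 promoters and in 3.2% of all promoters.

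Among the receptors themselves, Csf3r was the member with the largest difference, and the IL3 receptor genes Il3ra and Csf2rb were not called. Of 22 cytokine receptor genes, 19 were tested, 2 were higher and 4 lower (median -0.31, or -0.059 without replicate 1 of IL3-OHT). These counts lay near the shares of all genes tested, 11.6% higher and 15.2% lower. Il3ra, the IL3 receptor alpha chain, had 955, 813 and 889 in GCSF-OHT and 982, 909 and 974 in IL3-OHT, overlapping groups (log2 fold change -0.11, SE 0.13, limma adjusted p = 0.50). Csf2rb, the common beta chain, had 52915, 54640.2 and 51775 against 69150.1, 67878 and 68325, groups that did not overlap at a fold change under the threshold (-0.37, SE 0.043). Ifngr1, a chain of the interferon gamma receptor, was higher in GCSF-OHT, at 12807, 12759 and 13284 against 3034, 2888 and 3033 (log2 fold change 2.12, SE 0.050), while its partner Ifngr2 was lower (-0.75). Il4ra (-1.64), Kit (-0.71), the stem cell factor receptor, and Il1rl1 (-1.53, means of 2.50 and 6.34) were lower as well. The call of Il1rl1 was lost under 6 of 15 alternatives, and its log2 fold change was -0.87 without replicate 1 of GCSF-OHT, -1.31 without replicate 2 of IL3-OHT and -1.39 without replicate 3 of GCSF-OHT.

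Most feedback genes of ERK signaling, the kinase cascade that both receptors activate, were lower in GCSF-OHT. Of 16 tested, 13 were lower and 0 higher, with a median of -1.53. Dusp4, a nuclear phosphatase of ERK, had 459, 505 and 492 in IL3-OHT and 45.8, 56.3 and 56.5 in GCSF-OHT (log2 fold change -3.18, SE 0.20). Dusp6, a cytoplasmic phosphatase of ERK, had 4133, 4314 and 4246 against 1261, 1154 and 1304 (log2 fold change -1.77, SE 0.068), and Spred1, an inhibitor of RAS signaling, 1496, 1789 and 1616 against 312, 356 and 337 (log2 fold change -2.28, SE 0.088). Both were without overlap. Etv5 (-2.53), Dusp1 (-1.92), Dusp5 (-1.71), Phlda1 (-1.66) and Spred2 (-1.57) were lower too. Spry2 (-0.20), Dusp2 (0.86, limma adjusted p = 0.079) and Errfi1, with means of 0 and 0, were not called. Dusp2 was called higher in GCSF-OHT under 4 of 15 alternatives, among them edgeR's quasi-likelihood test (adjusted p = 2.6e-04) and DESeq2 (adjusted p = 1.3e-04).

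Of 25 immediate-early factors, 15 were lower and 1 higher in GCSF-OHT (median -0.86). Besides Egr1, Egr2 had 56.8, 57.4 and 59.1 in IL3-OHT against 4.67, 5.53 and 9.42 in GCSF-OHT (log2 fold change -3.01, SE 0.22), and the AP-1 subunit Fosl1 had 2417, 1918 and 1958 against 293, 248 and 243 (log2 fold change -3.0, SE 0.22). These groups stood well apart. The growth response gene Ier3 (-1.98), the zinc finger factors Klf2 (-1.66) and Klf6 (-1.30), and the AP-1 subunits Fos (-1.30), Junb (-1.14) and Jun (-1.09) were lower too. The exception was the AP-1 subunit Fosl2, with 8823, 8959 and 8439 against 5753, 5686 and 5546 (log2 fold change 0.63, SE 0.082). Nab2, a corepressor of EGR factors, was lower in every GCSF-OHT library (1167, 1241 and 1138 against 1894, 1685 and 1706) but just under the fold threshold (-0.57, limma adjusted p = 1.4e-05). It passed the threshold without replicate 2 or 3 of IL3-OHT or replicate 2 of GCSF-OHT (-0.60 to -0.61).

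Inflammatory genes were next. Of 25 tested NF-kB and inflammatory genes, 14 were lower and 1, Rel (0.81), was higher in GCSF-OHT (median -0.68), with 2 higher without replicate 2 of IL3-OHT or replicate 3 of GCSF-OHT. Tnf, a cytokine of macrophages, had 747, 789 and 845 in IL3-OHT and 102.8, 119.9 and 92.1 in GCSF-OHT (log2 fold change -2.91, SE 0.10). Il1rn, the antagonist of the IL1 receptor, was lower (log2 fold change -2.51), as were the inflammatory cytokine Il1b (-2.36), the chemokines Cxcl1 (-2.25), Ccl6 (-1.62) and Ccl9 (-1.59), and the NF-kB inhibitor Nfkbia (-1.27). The NF-kB subunits Rela, Relb, Nfkb1 and Nfkb2 were not called, with fold changes of -0.36, -0.14, 0.23 and 0.26.

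Among genes of the neutrophil program, more were higher than lower in GCSF-OHT, with the factor Cebpb as an exception. Of 9 tested neutrophil transcription factors, 4 were higher and 1 was lower (median 0.49), with 2 lower without replicate 1 of either group. Gfi1, a repressor required for neutrophil formation, had 5197, 5029.8 and 5229 in GCSF-OHT and 871, 785 and 845 in IL3-OHT, a 6.18-fold ratio of means (log2 fold change 2.63, SE 0.060, limma adjusted p = 1.1e-69, chr5:107716657-107726036). Per3, a circadian clock gene that the study counts among neutrophil factors, was higher by 1.52, and the granulocyte factors Cebpd and Cebpe by 1.18 and 1.12. Cebpb, which acts in emergency granulopoiesis and in macrophages, was lower: 8191, 6251 and 7424 against 15374, 15441 and 16174 (log2 fold change -1.11, SE 0.15). Cebpa, which is needed for the granulocyte and monocyte lineage, had 27682, 23623 and 25108 against 17493, 18226 and 18772. Those groups did not overlap, and the fold change (0.49, SE 0.13) was under the threshold.

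Of 12 tested members of the primary granule list, 7 were higher and 0 lower in GCSF-OHT (median 1.08), with 1 lower without replicate 3 of IL3-OHT. Mpo (myeloperoxidase) had 9309, 8988 and 9214 against 2775, 2442 and 2537 (log2 fold change 1.83, SE 0.10), and the protease Prtn3 had 74010.1, 70003 and 63095 against 22982, 19721 and 21496 (log2 fold change 1.69, SE 0.074). Elane (neutrophil elastase) had 108269.7, 108228 and 104348 against 90247, 85353 and 87073, and its fold change of 0.29 was not called. Hp (1.96), Ms4a3 (1.75), Gstm1 (1.14), Ctsg (1.01) and Nkg7 (2.53) were the other members called. The list is mixed, and the products of Hp, Ms4a3, Gstm1 and Nkg7 are not typical primary granule proteins. Of 20 members of the secondary and tertiary granule list, which is also mixed, 9 were higher and 2 lower (median 0.49). Lyz2 (lysozyme) had 122087, 122787 and 126456 against 40346, 37859 and 40335 (log2 fold change 1.65, SE 0.060), and the alarmins S100a8 and S100a9 were higher by 0.96 and 0.99. Camp, Olfm4, Lcn2 and Cd177 were higher by 1.07, 0.95, 0.79 and 0.68. Padi4 (-1.68), which citrullinates histones, and the gelatinase Mmp9 (-0.69) were lower, and Mmp9 was not called without replicate 2 of GCSF-OHT (-0.50). Ngp was level, with means of 30316 and 30320.4, and Ltf, a defining gene of secondary granules, had means of 6.49 and 5.94.

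Among 22 tested PU.1-dependent myeloid genes, 6 were higher and 5 lower (median -0.16, or 0.055 where a mean count of at least 10 was required). The oxidase subunits Ncf4, Cybb (57.9, 103.3 and 76.4 against 4.64, 5.42 and 3.64, log2 fold change 3.82, SE 0.21) and Ncf1 (1.0) were higher, and Cyba (0.013) was not called. The actin regulator Coro1a (2.19) and the inhibitory receptor Pirb (1.28) were higher. The lipopolysaccharide coreceptor Cd14 (-1.14), the integrin Itgam (-1.16, CD11b) and the lysosomal protein Laptm5 (-0.95) were lower. Of 13 tested macrophage transcription factors, 6 were lower and 0 higher (median -0.38, or -0.66 without replicate 1 of IL3-OHT and -0.68 without replicate 3 of GCSF-OHT), among them Irf4 (-1.86), Bhlhe40 (-1.30) and Id2 (-0.82). Irf8, needed for monocytes, had only 1.87, 2.77 and 9.42 in GCSF-OHT and 10.4, 8.67 and 6.36 in IL3-OHT, overlapping groups near the value of 3 reads, and its call (log2 fold change -0.95, limma adjusted p = 0.049) was lost under 10 of 15 alternatives, including the omission of replicate 1 or 2 of either group (log2 fold change -0.58 to -0.93). Csf1r, the macrophage growth factor receptor, was near the value of 3 reads in both groups (means of 2.60 and 5.33).

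Of 17 tested progenitor transcription factors, 8 were higher and 4 lower in GCSF-OHT (median 0.84, or 0.31 with a pseudocount of 5). Myb, which sustains proliferating progenitors, had 6253, 6205 and 6064 against 1252, 1233 and 1163 (log2 fold change 2.34, SE 0.049, chr10:21124935-21160984). Bcl11a (2.05), Lyl1 (1.43), Lmo2 (1.22) and Erg (1.18) were also higher. Myc, the growth factor-responsive activator of biosynthesis genes, went the other way, with 1615, 1485 and 1488 against 4945, 4894 and 5051 (log2 fold change -1.70, SE 0.068, chr15:61985391-61990374), as did Sox4 (-1.17). Without replicate 2 of GCSF-OHT, 2 members were lower.

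**Figure D2:**
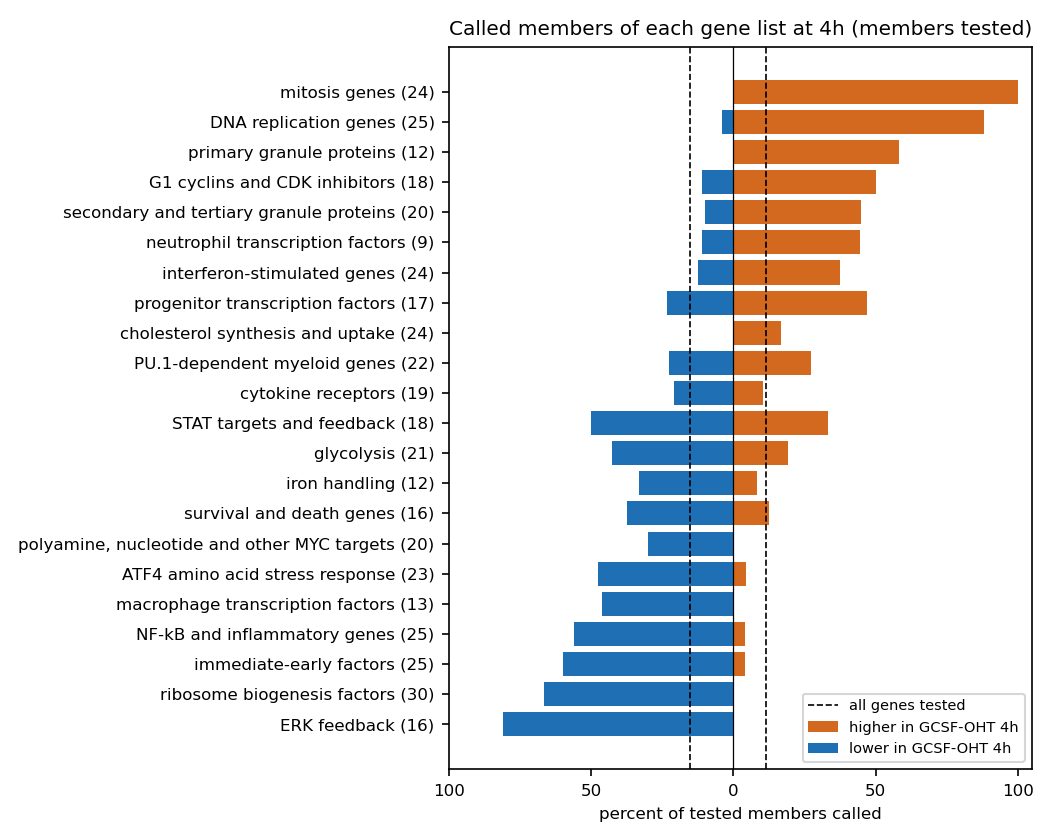
Percent of the tested members of 22 gene lists that were called at 4h, higher in GCSF-OHT to the right (orange) and lower to the left (blue), with the number of members tested in parentheses and dashed lines at the share of all genes tested, 11.6% and 15.2%. Mitosis and DNA replication genes reach furthest to the right, and ERK feedback, ribosome biogenesis and immediate-early genes furthest to the left.

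Mitosis genes and most DNA replication genes were higher in GCSF-OHT. All 24 mitosis genes were higher in GCSF-OHT (median 1.33, range 0.75 to 1.90). Of 25 DNA replication genes, 22 were higher, 1 was lower and 2 were not called (median 1.19, range -1.46 to 1.91). Mki67, the proliferation marker, had 8965, 9999.6 and 9440.2 against 2769, 3107 and 2929 (log2 fold change 1.69, SE 0.086), and Rrm2, the regulated subunit of ribonucleotide reductase, 1809, 1796 and 1832 against 489, 466 and 487 (log2 fold change 1.91, SE 0.065). The helicase subunits Mcm2 to Mcm7 were higher by 1.16 to 1.52, and the kinesin Kif11 by 1.90. Pcna, the polymerase clamp, was among those not called (0.49).

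Among 18 G1 cyclins and CDK inhibitors, 9 were higher and 2 lower (median 0.60), activators and inhibitors alike. Ccnd2 (cyclin D2), a target of STAT5, had 16686, 17269.8 and 17112 in IL3-OHT and 4867, 5037 and 4892 in GCSF-OHT (log2 fold change -1.79, SE 0.051). Its kinase Cdk6 was higher in GCSF-OHT, at 13925, 14399 and 14507 against 4549, 4937 and 4506 (log2 fold change 1.61, SE 0.066). The inhibitors Cdkn2c (2.04), Cdkn2d (1.86) and Cdkn1b (1.14) were higher in GCSF-OHT too.

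Of the 30 ribosome biogenesis factors, which assemble ribosomes in the nucleolus, 20 were lower and 0 higher in GCSF-OHT (median -0.69, range -1.50 to 0.040). Gnl3, a nucleolar GTPase, had 1132, 1105 and 1066 against 2914, 3259 and 3185 (log2 fold change -1.50, SE 0.089), and the box C/D ribonucleoprotein subunit Nop56 2889, 2876 and 2855 against 5548, 5433 and 5708 (log2 fold change -0.95, SE 0.066). Polr1b, a subunit of RNA polymerase I, was lower (log2 fold change -1.10). Npm1 (-0.55) and Ncl (-0.30), both nucleolar proteins, were not called. Of 20 polyamine, nucleotide and other MYC targets, 6 were lower and 0 higher (median -0.36), with spermidine synthase Srm (-1.08) the lowest and ornithine decarboxylase Odc1 (-0.78) next.

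Of 21 glycolysis genes, 9 were lower and 4 higher (median -0.12), and the median was above 0 without replicate 1 of IL3-OHT (0.14) or of GCSF-OHT (0.078). Gapdh had 73050.3, 73951 and 74082 against 147119.6, 139351 and 138672 (log2 fold change -0.94, SE 0.089), and Pgk1 (-1.18), Eno1 (-0.75) and the glucose transporter Slc2a1 (-0.88) were lower, while the regulatory enzyme Pfkfb4 was higher (446, 472 and 388 against 89.3, 102.9 and 64.5, log2 fold change 2.36). Of 23 tested ATF4 response genes, 11 were lower and 1 was higher (median -0.58, or -0.37 without replicate 2 of IL3-OHT and -0.36 without replicate 3 of GCSF-OHT), with the cystine transporter Slc7a11 (-2.44), the pseudokinase Trib3 (-2.15) and Atf4 itself (-1.11) lower. Of 12 tested iron handling genes, 4 were lower and 1 was higher (median -0.31), with 2 higher without replicate 3 of IL3-OHT. Beside Hmox1, the ferritin chains were lower, Fth1 at 62116, 58312 and 61907 against 170724, 155745 and 169217 (log2 fold change -1.44, SE 0.067) and Ftl1 at 137212, 140621 and 137008 against 335238, 315206 and 322165 (log2 fold change -1.23, SE 0.073). Gapdh and the ferritin genes have many pseudogenes with which reads may be shared. Cholesterol genes showed 4 of 24 higher and 0 lower (median 0.16, with 1 lower without replicate 2 of IL3-OHT), led by Fdps (1.16), which makes farnesyl pyrophosphate. Of all genes tested, 11.6% were higher and 15.2% lower, so the count of higher cholesterol genes was near that share.

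Of 16 tested survival and death genes, 6 were lower and 2 higher (median 0.069). This median lay between -0.062 and 0.025 without replicate 2 or 3 of IL3-OHT or replicate 1 or 3 of GCSF-OHT. Bcl2l1 (BCL-XL), a survival gene that STAT5 induces, had 3538, 3440.3 and 3515 in IL3-OHT and 912, 949 and 847 in GCSF-OHT (log2 fold change -1.95, SE 0.066). The survival gene Mcl1 (-0.63, or -0.57 and not called by edgeR) and the death gene Bcl2l11 (BIM, -0.77) were lower, while the survival gene Bcl2 (0.95) and the death gene Bmf (1.05) were higher. Of 24 tested interferon-stimulated genes, 9 were higher and 3 lower (median 0.51), among them the antiviral gene Ifit2 (869, 865 and 893 against 146, 161 and 188, log2 fold change 2.41), the GTPases Ifi47 (2.78) and Irgm1 (1.73), and Irf1, a transcription factor of interferon responses (793, 821 and 754 against 274, 274 and 246, log2 fold change 1.57). Gbp2 (-0.81) was among the lower ones.

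The second question was which differences stood before OHT. GCSF 0h and IL3 0h share no library with the 4h groups. There, 5861 genes (33.7%) were DEGs, 2261 higher (13.0%) and 3600 lower (20.7%) in GCSF, with a median of -0.092 over all genes. With TMM scaling in edgeR's quasi-likelihood test the split was 2795 and 2967, with a median of 0. Of the 4660 DEGs at 4h, 3077 were DEGs in the same direction at 0h (66.0% of the 4h and 52.5% of the 0h DEGs), and 56 were DEGs in the opposite direction. Genes that stood apart already at 0h include Csf3r (log2 fold change 2.38 at 0h), Gfi1 (3.14), Myb (2.43), Ncf4 (3.56), Hmox1 (-4.82) and Cish (-2.20). All 24 mitosis genes and 23 of 25 DNA replication genes were higher in GCSF at 0h, with medians of 1.42 and 1.42, and 0 of either list were lower. At 8h, in other libraries again, 4453 genes (25.6%) were DEGs, 2096 higher (12.0%) and 2357 lower (13.5%), and 2750 were shared in direction with 4h (59% of the 4h and 61.8% of the 8h DEGs). At 3h, 4668 genes (26.8%) were DEGs, and 3563 were shared in direction with 4h (76.5% of the 4h and 76.3% of the 3h DEGs).

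The difference between the conditions in the change from 0h to 4h was tested directly, as the GCSF change minus the IL3 change. It was called for 2630 genes (15.1%), 1648 with the higher (9.46%) and 982 with the lower change in GCSF (5.64%), and the median over all genes was 0.035. With TMM scaling in edgeR's quasi-likelihood test the split was 1292 and 1227. Of 25 DNA replication genes, 4 were called for the lower and 0 for the higher change in GCSF (median -0.22), and of 24 mitosis genes 0 were called. Within each condition, limma called 978 genes (5.62%) between 0h and 4h in GCSF and 3850 (22.1%) in IL3. Of the 17414 genes tested, 559 rose and 419 fell in GCSF, and 1503 rose and 2347 fell in IL3.

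The difference in ribosome biogenesis genes arose between 0h and 4h. At 0h the median of the 30 genes was 0.015, with 2 higher and 3 lower. The difference in change was called for 21 of the 30, all with the lower change in GCSF (median -0.69). Within the conditions, 21 of the 30 rose from 0h to 4h in IL3 (median 0.68) and 0 were called in GCSF (median -0.0092). At 8h 29 were lower (median -1.43). Myc had 3603 ± 162 (mean ± SD, n = 3) in GCSF and 4129 ± 63.9 in IL3 at 0h. After 1h the means were 4963 ± 157.9 and 5069 ± 223, and after 4h 1529 ± 74.3 and 4963 ± 80.4. The conditions were not called different at 0h and 1h and were called from 2h on (2839 ± 236 and 4276 ± 406), and the difference in change from 0h to 4h was -1.50 (SE 0.096, limma adjusted p = 1.3e-27). Pim1 (0h 0.40, difference in change -1.14), Bcl2l1 (-0.74 and -1.22), Spred1 (-0.72 and -1.56) and Tnf (-1.19 and -1.72) were likewise called for the lower change in GCSF.

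Immediate-early genes differed more at 0h than at 4h. At 0h, 24 of 25 were lower in GCSF (median -2.26), and the difference in change was called for 14 with the higher and 1, Egr1, with the lower change in GCSF. Fosb had 10336 ± 138.5 in IL3 at 0h and 18821 ± 777 at 1h, but 250.4 ± 6.68 at 4h, whereas GCSF had 38.1 ± 4.07, 4987 ± 529.9 and 91.6 ± 9.15. The sources do not say that the IL3 0h cells, which also serve as the start of the GCSF course, were plated for 48 h like the others, and the part of this in the 0h values was not tested. Egr1 was different, as IL3 held 2943 ± 81.4 at 0h, fell to 873 ± 97.4 at 2h and had 2699 ± 121.2 at 4h, against 265 ± 64.6, 184.2 ± 20.9 and 77.5 ± 10.4 in GCSF. Glycolysis genes also differed more at 0h, with 15 of 21 lower at 0h (median -1.0) and 15 called for the higher change in GCSF. Within the conditions, 16 of the 21 fell from 0h to 4h in IL3 (median -1.09), and in GCSF 1 fell and 0 rose (median -0.21). Cholesterol genes had 11 of 24 lower at 0h (median -0.60) and 12 called for the higher change, with 7 that fell in IL3 and 2 that rose in GCSF. Of the immediate-early genes, 14 fell and 1 rose in IL3, and 3 fell and 5 rose in GCSF. Over all 17414 genes tested, 2347 fell and 1503 rose in IL3, and 419 fell and 559 rose in GCSF.

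**Figure D3:**
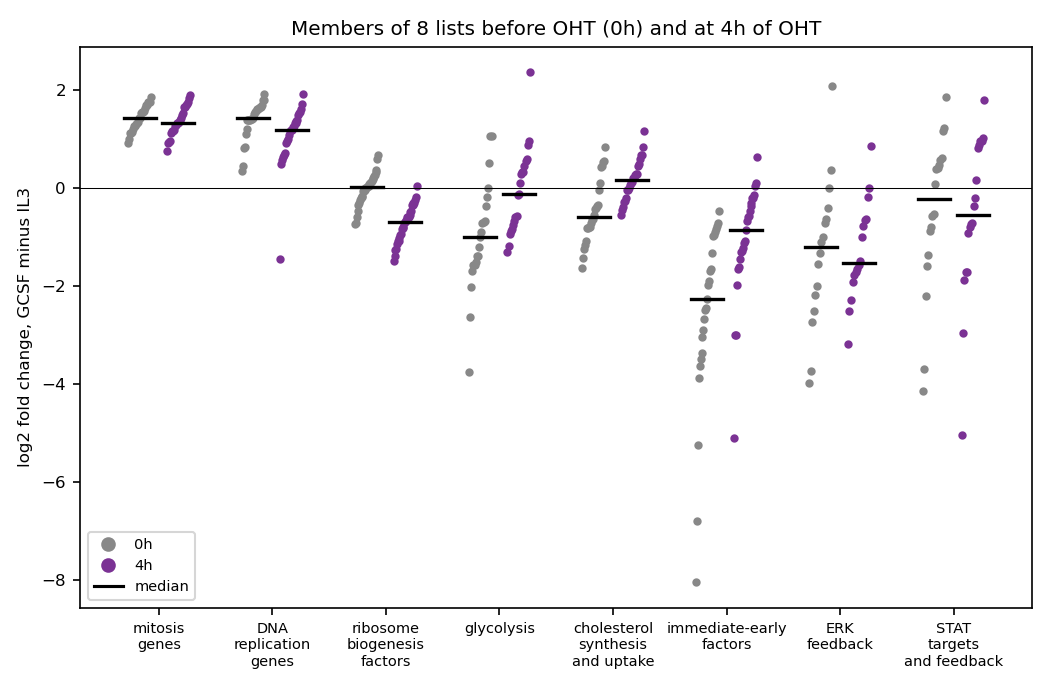
Log2 fold changes (GCSF minus IL3) of the tested members of 8 lists at 0h (grey) and 4h (purple), 1 point per gene, with the list median as a black bar. The median of ribosome biogenesis genes goes from 0.015 to -0.69, those of immediate-early, glycolysis and cholesterol genes are nearer to 0 at 4h, and those of mitosis and DNA replication genes lie above 0 at both times.

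Among the genes with the highest difference in change were the AP-1 subunit Fosb (6.61), the zinc finger factor Egr3 (5.20), Iqcn (4.86), the stress-induced factor Atf3 (4.58) and Hcar2 (4.01). These 5 were lower in GCSF at 0h, with log2 fold changes of -8.05 (Fosb) to -4.42 (Hcar2). Egr3 had 757 ± 62.8 in IL3 at 0h and 24.7 ± 3.39 at 4h, against 5.81 ± 1.20 and 7.40 ± 0.98 in GCSF. Hcar2, the receptor of niacin and hydroxybutyrate, had 1845 ± 79.3 in IL3 at 0h and 445 ± 28.3 at 4h, against 85.9 ± 11.6 and 334 ± 3.35 in GCSF, and was not called at 4h. Among the lowest were the zinc-sensing receptor Gpr39 (-2.64), the serotonin transporter Slc6a4 (-2.40), the deoxycytidylate deaminase Dctd (-1.90), the kinase Dmpk (-1.89) and Trim47 (-1.73), a ubiquitin ligase. Gpr39 had 87.8 ± 11.4 in IL3 at 0h and 333 ± 15.3 at 4h, against 103.8 ± 5.14 and 62.99 ± 9.07 in GCSF, so the conditions stood apart at 4h and not at 0h. Dctd, which supplies thymidine synthesis, went from 182.9 ± 10.8 to 164.8 ± 10.3 in GCSF and from 98.4 ± 6.23 to 334 ± 10.5 in IL3. It was higher in GCSF at 0h and lower at 4h. Csf3r (1.14) and Csf2rb (-0.71) were called in opposite directions, and Csf3r was lower at 4h than at 0h in both conditions (log2 fold change -0.68 in GCSF and -1.83 in IL3), whereas Csf2rb was higher (1.54 and 2.25). Nab2 was called for the higher change in GCSF (2.32), with a log2 fold change of -2.90 between the conditions at 0h.

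**Figure D4:**
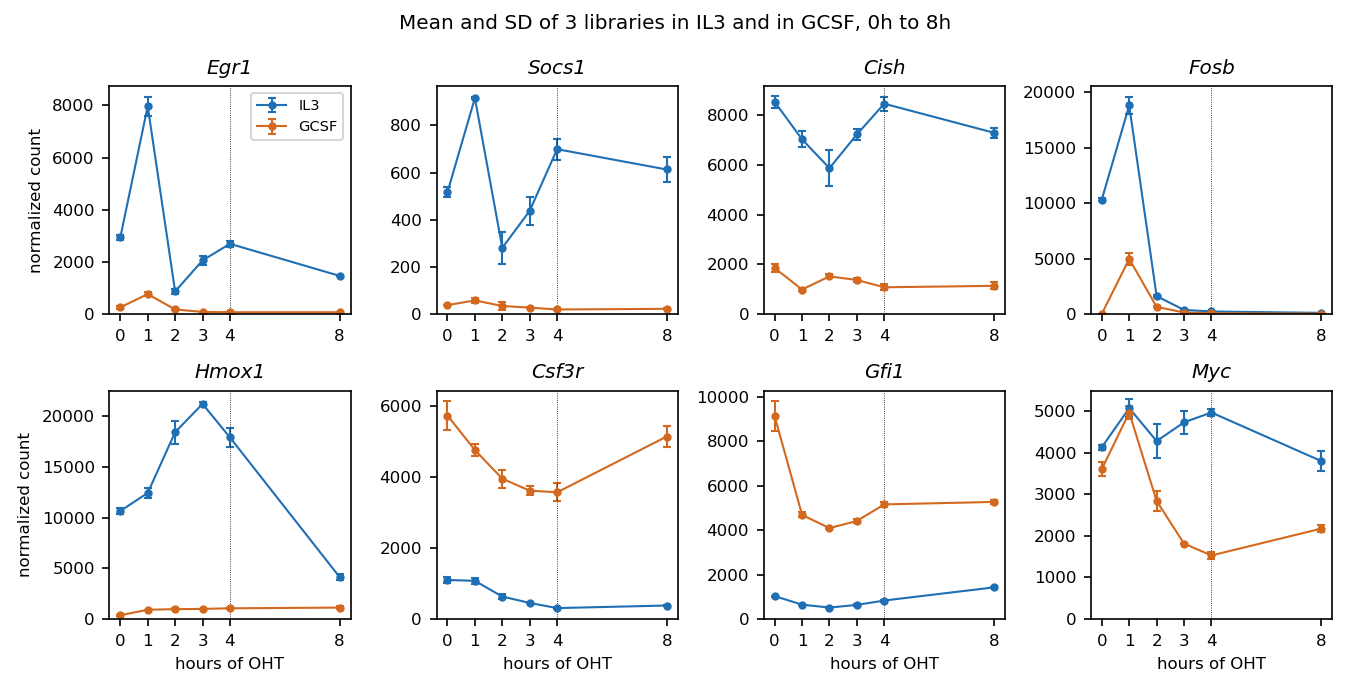
Mean normalized count ± SD of 3 libraries from 0h to 8h of OHT in IL3 (blue) and GCSF (orange) for 8 genes, with a dotted line at 4h. Egr1, Socs1, Cish and Hmox1 are lower and Csf3r and Gfi1 higher in GCSF at every time point, Fosb has its largest ratio between conditions at 0h, and Myc is lower in GCSF from 2h on.

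Markers of other lineages were summed in each library. The summed count of 8 eosinophil markers was 2.77 to 6.28 in GCSF-OHT and 1.08 to 1.82 in IL3-OHT, that of 10 erythroid markers 30.4 to 48.9 and 34.8 to 50.9, with Ermap (-1.49) the member of these lists that was called. The call of Ermap was lost under 7 of 15 alternatives, among them the omission of replicate 2 or 3 of IL3-OHT or 1 or 3 of GCSF-OHT (log2 fold change -1.02 to -1.39). The eosinophil marker Ccr3 was called higher in GCSF-OHT without replicate 2 of IL3-OHT (log2 fold change 1.61) or replicate 1 of GCSF-OHT (1.59) and with a pseudocount of 0.5 (1.77). Of 16 mast cell and basophil markers, 10 had no read, among them Cpa3, Fcer1a and Prss34, while Hdc, Mcpt8 (1.61) and Ms4a2 (1.63) were higher in GCSF-OHT. The summed count of this list was 500.0 to 582 in GCSF-OHT and 144.96 to 170.1 in IL3-OHT. Of 18 monocyte and macrophage markers, 4 were higher (F13a1, Adgre1, Ccr2 and Cx3cr1, at 2.01, 1.20, 1.08 and 1.03) and 3 lower (Msr1, Cd68 and Cd14, at -2.71, -1.47 and -1.14), and the complement genes C1qa, C1qb and C1qc had no read. The summed count of this list was 48292 to 49152 in GCSF-OHT and 54775 to 56954 in IL3-OHT. Megakaryocyte markers were lower in GCSF-OHT where called (Itga2b -1.73, Vwf -1.24, Gp1ba -0.84), with Pf4 at or near 0, and summed to 916 to 1007 in GCSF-OHT and 2212 to 2269 in IL3-OHT. Of 9 dendritic cell markers, Itgax (-3.03, means of 13.8 and 115.4), Batf3 (means of 0 and 9.87) and Zbtb46 (means of 0.964 and 9.85) were called lower, the last 2 from a GCSF-OHT level under that of 3 reads, and the list summed to 35.04 to 52.4 in GCSF-OHT and 154.5 to 194 in IL3-OHT. Of 12 lymphoid markers, Il7r was the member called, with means of 0.661 in GCSF-OHT, also under that of 3 reads, and 42.4 in IL3-OHT, and 2 were lower without replicate 1 of GCSF-OHT. Ighm (0.88) was called higher in GCSF-OHT under 4 of 15 alternatives, among them edgeR's quasi-likelihood test (log2 fold change 0.93, adjusted p = 0.012) and DESeq2 (0.90, adjusted p = 0.021). With a mean count of at least 10 required, 1 of the dendritic cell markers was lower. Whether other cells contributed to these levels was not tested.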

How the data were processed

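Total RNA of up to 3 replicates per group was sequenced, and whether reads were counted by strand is not given in the sources used here. Transcripts had been quantified by the authors (Salmon, GRCm38) and gene counts divided by DESeq2 size factors, and this deposited signal, the normalized count, covers 36255 genes in 165 libraries. How transcripts were brought to genes is not stated. All nonzero values (100.0%, within a relative tolerance of 1e-06) came out whole when divided by the value of a single read, which gave back the reads (14600246 to 33147945 per library).

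The 17414 genes that reached a normalized count of 5 in any library were fitted with limma 3.58.1 (R 4.3.3) on log2(normalized count + 1), with 1 mean for each of 54 groups of condition and time over 159 libraries, a mean-variance trend and Benjamini-Hochberg adjustment over all genes tested. Of the 56 groups in the series, 2 of the late IL3-OHT groups were left out of the fit. The fit was also run on simulated data, and the outcome is not given here. The thresholds for DEGs were 0.05 (adjusted p) and 0.58 (log2 fold change, either direction). Alternatives were pseudocounts of 0.5 and 5, other filters, upper-quartile scaling, fits of the compared groups alone, a replicate block, leaving out each library, and edgeR 4.0.16 (TMM, quasi-likelihood) and DESeq2 1.42.0 on the recovered reads (17383 genes of the 0h to 8h groups).

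The genes named were the 12 highest and 12 lowest at 4h (called, mean of at least 100 in the higher group, no overlap, no predicted or clone name), the 6 highest and 6 lowest for the difference in change from 0h to 4h, called members of the lists by size and level, and 10 genes of the receptors and lineage factors whatever their values, and a few genes that these rules or lists hold are not reported here. The comparison, the lists and the rules were chosen with earlier results of these data known. Gene coordinates come from GENCODE vM21 by symbol, and promoters from RefSeq (GRCm38.p6). Within the groups at 4h, replicates differed by more than sampling noise (chi-square per gene of 3.43 to 6.04 in 6 pairs, Pearson's r across genes of at least 0.980). Counting limits cover counting error only.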

Additional observations from a re-analysis of the deposited data

Results flagged for a closer look

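The change from 0h to 4h differed between GCSF and IL3, by limma's test of the difference itself, for 2630 genes, and the values below are GCSF minus IL3 on the log2 scale. The change was higher in GCSF for Fosb (6.61), Egr3 (5.20), Iqcn (4.86), Atf3 (4.58), Hcar2 (4.01), Nab2 (2.32) and Csf3r (1.14). It was lower in GCSF for Gpr39 (-2.64), Slc6a4 (-2.40), Dctd (-1.90), Dmpk (-1.89), Trim47 (-1.73), Egr1 (-1.61) and Csf2rb (-0.71). Of the genes named first, Fosb, Egr3, Iqcn, Atf3, Hcar2 and Nab2 were all lower in IL3 at 4h than at 0h, with log2 fold changes between -5.36 (Fosb) and -1.79 (Nab2). The thymidine synthesis gene Dctd rose in IL3 (1.76) and was not called in GCSF (-0.15). Slc6a4, which takes up serotonin, rose in both conditions, by 2.75 in GCSF and 5.15 in IL3.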

How the results depend on the processing

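The counts of DEGs stayed within 1.5 times of the main count under every alternative run. At 4h they ranged from 3826 (mean normalized count of at least 10) to 4765 (upper-quartile scaling) around 4660, with 4458 by edgeR and 4319 by DESeq2, and 4438 to 4610 when 1 of the 6 libraries was left out. At 0h they ranged from 4643 to 6075, and for the difference in change from 2386 to 2799. Of the changes called different, 62.7% were higher in GCSF by limma and 51.3% by edgeR with TMM. Over 491 genes and their 15 alternatives at 4h, 7141 of 7320 values kept direction and call, 104 lost the call, 75 gained it and 0 reversed. Beside those given with the lists, some list medians moved by over 1.5 times. That of the cytokine receptors was -0.10 with a pseudocount of 5 and -0.082 with a mean count of at least 10. That of the macrophage transcription factors was -0.62 by edgeR and -0.65 by DESeq2, and that of the PU.1-dependent myeloid genes -0.10 by edgeR. The median of glycolysis was -0.012 with a mean count of at least 10 and -0.059 by edgeR, and that of the survival and death genes 0.036 with that filter, 0.032 with upper-quartile scaling and 0.13 by edgeR. With a pseudocount of 5, the median of the secondary and tertiary granule list was 0.315 and that of the ATF4 amino acid stress response -0.36.

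Replicate numbers are shared between the groups, but the labels do not say that they pair the cultures. At 4h, deviations of libraries with the same number correlated between -0.023 and 0.094, and those with other numbers between -0.137 and 0.088, and not every library correlated best with its own number. With the replicate block, 4664 genes were called at 4h, 5871 at 0h and 2631 for the difference in change. Of the genes named, Irf8 lost its call with the block (limma adjusted p = 0.050).

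The limits are those of the design. The 3 libraries of a group come from 1 line, each time point had its own plate, and cytokine, the 48 h without IL3 and the dose of OHT differ together. Genes near 3 reads, such as Irf8, Il1rl1 and Ptprc, are at the limit of what this depth resolves.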
